A study of Rattus norvegicus with 9 samples.

Results

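The genes described here encode chaperones of the endoplasmic reticulum (ER) and factors of the unfolded protein response: Hspa5, Hsp90b1, Calr, Dnajb9, Pdia4, Pdia6, Herpud1, Sel1l, Atf6 and Xbp1. They were chosen by name, with earlier results of these data known. A probe was taken as theirs when its RefSeq accession belonged to the gene. This gave 12 probes for 9 of the 10 genes, out of 9604 named genes tested on the arrays. No probe was matched to Xbp1 by accession, so its RNA level was not analysed here. All 12 probes were well above background on all 9 arrays, and Herpud1, Hsp90b1 and Dnajb9 had 2 probes each.

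Liver RNA of 9 male Wistar rats was hybridised to one-colour Agilent arrays, 1 rat per array, in 3 groups of 3 rats. The control rats were untreated. The rats of the TBI group received 6.5 Gy of total-body irradiation (TBI) from a cobalt source, 24 h before the time point of the measured liver. The rats of the HSC + TBI group were given Hong Shan Capsule (HSC), a Chinese herbal preparation used against radiation injury, through the stomach on 3 consecutive days before the same irradiation. The sample labels give its dose as 30 mg/kg/day, while the series description and the paper give 10 g/kg/day. None of the 9 arrayed livers came from a rat given HSC without irradiation, so an effect of HSC alone cannot be told apart from its effect on irradiated liver. The ages of the rats and how these 9 were drawn from larger treatment groups are not given in the sources used here.

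Secreted and membrane proteins fold in the ER, and hepatocytes, which make most plasma proteins, hold a large amount of it. When unfolded proteins gather there, the sensors IRE1, ATF6 and PERK start the unfolded protein response. IRE1 splices the Xbp1 messenger, and the spliced XBP1 protein and the cleaved ATF6 protein enter the nucleus and turn on genes for chaperones, disulfide isomerases and ER-associated degradation, the route by which misfolded proteins leave the ER for the proteasome. PERK slows translation and raises a further set of stress genes through the factor ATF4. Splicing, cleavage and phosphorylation are not measured by these arrays, which give RNA levels only.

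The promoters of several of these genes carry the ER stress response element (ERSE), the sequence at which ATF6 and XBP1 are known to act. It is shown here as a feature that some of the genes share by sequence. RefSeq promoter windows of build GRCr8, from 250 bases before to 50 bases after the transcription start, were at hand for 8 of the 10 genes, Pdia6 and Atf6 being the others. ERSE, searched on both strands as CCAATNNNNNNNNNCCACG, was found in 4 of the 8 windows, against 22 of all 33469 windows (0.0657%). ERSE-II, searched as ATTGGNCCACG, was found in Herpud1 alone among the 8, against 17 of all windows (0.0508%). The stretches around these matches are given 5′ to 3′ on the strand of the gene, with capitals for the CCAAT and CCACG boxes of each ERSE match, or their reverse complements ATTGG and CGTGG, and for the whole ERSE-II match. Boxes outside these matches stay in lower case.
Hspa5, chr3:38452963-38453001, + strand, 53 to 15 bases before the start: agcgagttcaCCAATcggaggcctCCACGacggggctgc
Hsp90b1, chr7:23012337-23012479, - strand, 186 to 44 bases before the start: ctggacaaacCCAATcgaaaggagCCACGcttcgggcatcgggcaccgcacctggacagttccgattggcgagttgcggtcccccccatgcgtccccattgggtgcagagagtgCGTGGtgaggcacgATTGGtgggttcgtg
Calr, chr19:40213125-40213163, + strand, 242 to 204 bases before the start: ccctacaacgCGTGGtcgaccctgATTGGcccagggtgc
Xbp1, chr14:84604548-84604586, + strand, 75 to 37 bases before the start: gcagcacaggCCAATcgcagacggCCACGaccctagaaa
Herpud1, chr19:10614811-10614841, - strand, 134 to 104 bases before the start, ERSE-II: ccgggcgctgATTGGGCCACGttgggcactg
Hsp90b1 held ERSE at 2 places, once on each strand, and both lie within the stretch shown. The short CCACG box alone was in 8 of 8 windows against 31.6% of all windows, and the CCAAT box in 8 of 8 against 37.5%; both boxes are also part of ERSE and ERSE-II. The UPRE core TGACGTGG, a site of spliced XBP1, was in 0 of the 8 windows and in 0.595% of all. Dnajb9, Pdia4 and Sel1l held neither ERSE nor ERSE-II. Genes and motifs were both picked from what is known of the unfolded protein response, so these shares describe the windows and test nothing. A match is a stretch of letters, and no binding was measured.

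**Figure D1:**
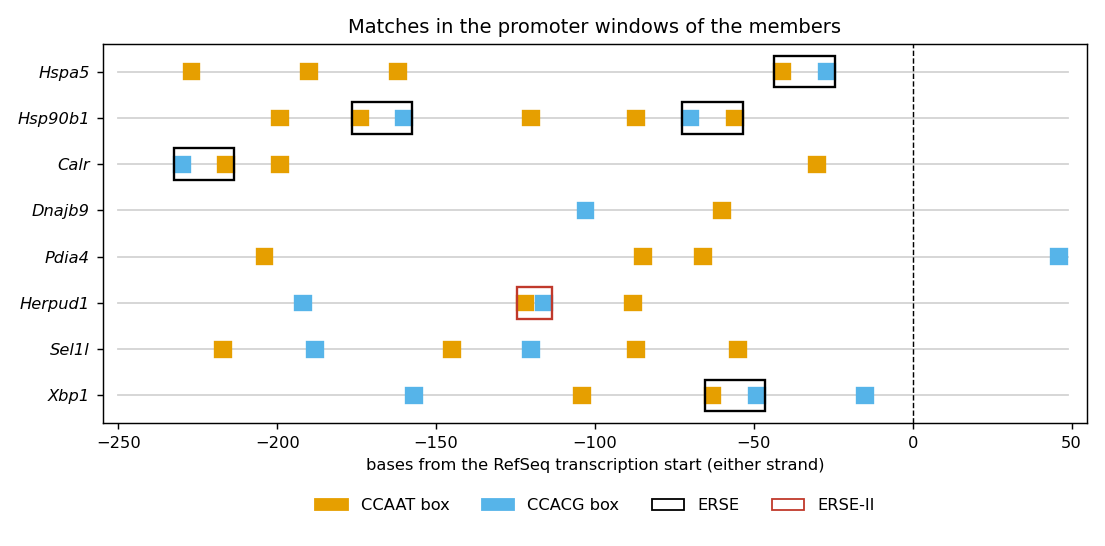
Matches of the motifs in the 8 promoter windows, plotted by distance in bases from the RefSeq transcription start (dashed line); orange squares are CCAAT boxes, blue squares CCACG boxes on either strand, black frames ERSE and the red frame ERSE-II. Hspa5, Hsp90b1, Calr and Xbp1 carry ERSE, Hsp90b1 carries it at 2 places, and Herpud1 carries ERSE-II.

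Values below are log2 processed signals after quantile normalization over the 9 arrays. A level may be compared between rats for 1 probe, and not between probes. As a check of the irradiation labels, Cdkn1a, the p53 target that encodes p21, had levels of 7.98 to 8.81 in the controls, 13.44 to 14.04 in the TBI group and 13.00 to 13.56 in the HSC + TBI group, with no overlap between irradiated and control rats. Between 57.2% and 59.9% of the spots of the control rats passed the background flag, as did 59.3% to 61.0% in the HSC + TBI group and 64.1% to 70.1% after TBI alone, where TBI 3 stood highest. The 6 hepatocyte markers were above background on all 9 arrays and 0 of the 6 were called in any comparison by limma, with 1 at an unadjusted p under 0.05 after TBI and 0 in the others. Between HSC + TBI and the controls 5 of the 6 did not overlap, 3 higher and 2 lower, against 31.7% of all probes. After TBI 2 did not overlap, and 1 between the irradiated groups, against 28.8% and 21.4%. Tf read 18.16 in all 3 HSC + TBI rats (SD 0). No result about hepatocyte content is read from these markers. The controls lay on slide 1, the TBI rats on slide 2, and the HSC + TBI rats on slides 3 and 4, so slide and group cannot be told apart.

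A gene was called when limma gave an adjusted p under 0.05 over all tested probes and the fold change was at least 1.5. By that rule 0 of the 9 measured genes were called after TBI alone, where 7.25% of all 25369 tested probes were called. After HSC + TBI, 0 of the 9 were called against the controls, beside 3.23% of all probes, and 0 of the 9 between the irradiated groups, beside 0.796% of all. At an unadjusted limma p under 0.05 the counts were 2 of 9 (Hsp90b1 higher and Herpud1 lower), 1 of 9 (Hsp90b1) and 1 of 9 (Herpud1), against 25.5%, 19.6% and 16.3% of all probes. The median log2 fold change of the 9 genes was 0.06 after TBI, 0.09 after HSC + TBI and 0.10 between the irradiated groups, and the medians of all tested probes were -0.01, 0.05 and 0.06. Groups did not overlap for 2, 2 and 3 of the 9 genes, against 28.8%, 31.7% and 21.4% of all probes. Nothing particular to the ER genes is read from these shares. With 3 rats per group the number of arrays limits the precision: the 95% intervals reached a median of 0.29 to either side of the estimate, on the log2 scale, in each of the comparisons.

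**Figure D2:**
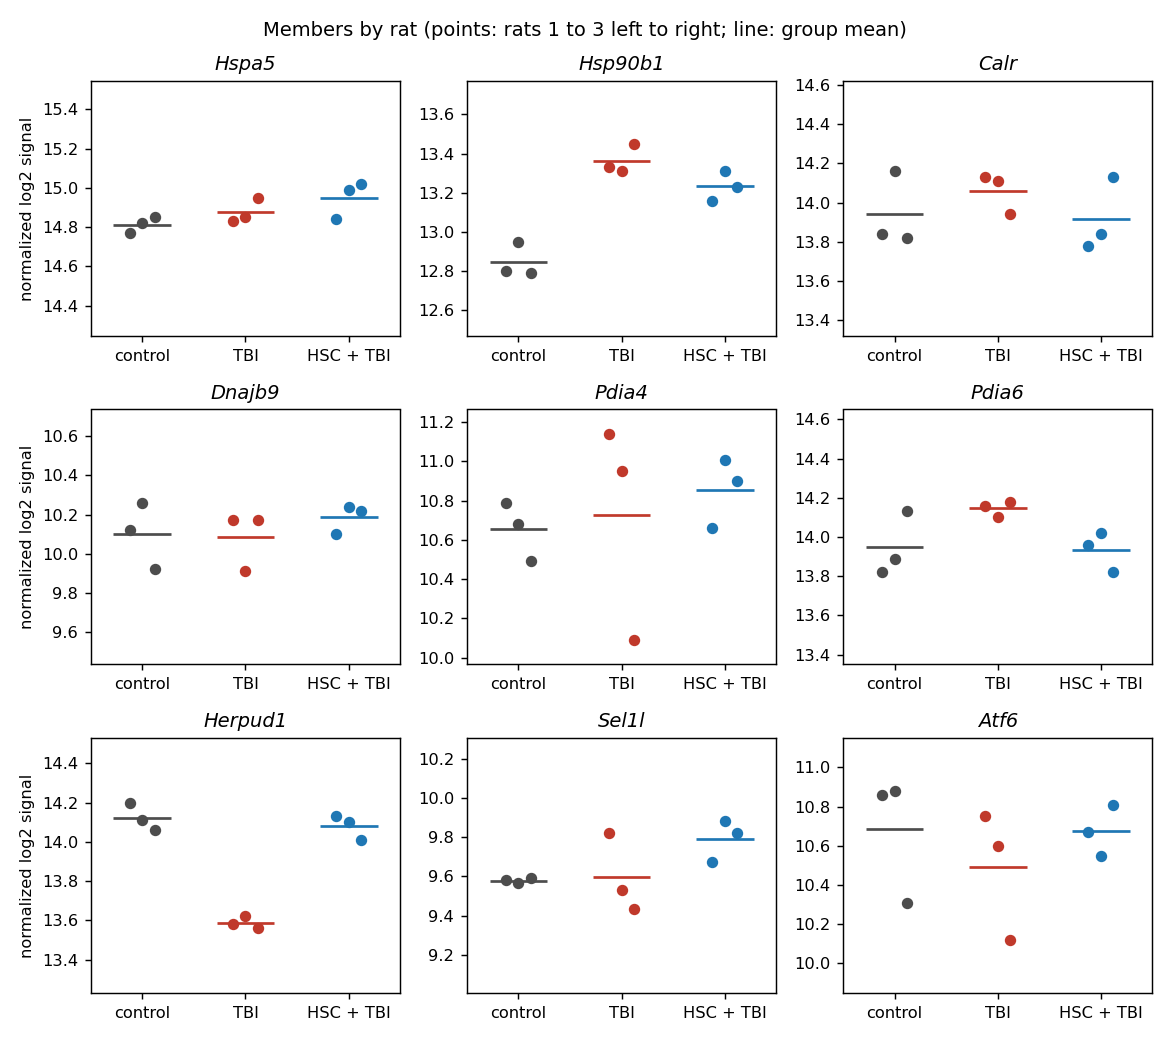
Normalized log2 signal of the brightest probe of each gene in every rat; points are rats 1 to 3 of each group from left to right, lines are group means, and every panel spans the same log2 range. Herpud1 in the TBI group (13.56 to 13.62) lies below all control and HSC + TBI rats, and Hsp90b1 in both irradiated groups lies above all controls, while the groups of Hspa5, Calr, Dnajb9, Pdia4 and Atf6 overlap in every comparison.

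Hspa5 encodes BiP, the main Hsp70 chaperone of the ER lumen, which also holds the sensors inactive. Its levels were 14.77, 14.82 and 14.85 in the controls, 14.83, 14.85 and 14.95 after TBI, and 14.84, 14.99 and 15.02 after HSC + TBI. The order of the means was control, TBI, HSC + TBI, and each group overlapped its neighbour. Hspa5 differed from the controls by 1.04-fold after TBI (95% interval 0.886 to 1.23, adjusted p = 0.744) and by 1.10-fold after HSC + TBI (0.932 to 1.29, adjusted p = 0.527). Both intervals lie inside a 1.5-fold change in either direction.

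Hsp90b1 encodes GRP94, the Hsp90 chaperone of the ER, which folds integrins and Toll-like receptors among others. Its brighter probe read 12.80, 12.95 and 12.79 in the controls, 13.33, 13.31 and 13.45 after TBI, and 13.16, 13.31 and 13.23 after HSC + TBI. All 6 irradiated rats lay above all 3 controls, and the irradiated groups met at 13.31 without overlap before rounding. The log2 fold change after TBI was 0.515 with SE 0.107, which is 1.43-fold (1.21 to 1.69, limma adjusted p = 0.0235), short of the fold minimum. After HSC + TBI it was 0.387 (1.31-fold, 1.11 to 1.55, adjusted p = 0.0922), and the irradiated groups differed by -0.13 (adjusted p = 0.588).
The second Hsp90b1 probe did not repeat this. It read 11.61, 11.63 and 11.42 in the controls, 11.67, 11.67 and 11.02 after TBI and 11.62, 11.60 and 11.99 after HSC + TBI, and these ranges overlap. Its log2 fold change after TBI was -0.10 (adjusted p = 0.794), of opposite sign to the brighter probe. With the mean of the 2 probes the change after TBI was 0.21 (adjusted p = 0.325). The adjusted p ran from 0.000226 to 0.325 over the alternatives to the main processing. Its low end came from the slide as a random block, a fit that cannot part slide from group.

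Calr encodes calreticulin, the lectin chaperone that binds glycoproteins and stores calcium. It read 13.84, 14.16 and 13.82 in the controls, 14.13, 14.11 and 13.94 after TBI, and 13.78, 13.84 and 14.13 after HSC + TBI. The groups overlapped, the widest spread being within the controls and within the HSC + TBI rats. The fold change was 1.09 after TBI (0.862 to 1.37, adjusted p = 0.643) and 0.987 after HSC + TBI (0.782 to 1.25, adjusted p = 0.959).
Dnajb9 encodes ERdj4, a cochaperone of BiP that is a known target of spliced XBP1. Its brighter probe gave 10.12, 10.26 and 9.92 in the controls, 10.17, 9.91 and 10.17 after TBI, and 10.10, 10.24 and 10.22 after HSC + TBI, and these ranges overlap. Its fold change was 0.989 after TBI (0.804 to 1.22, adjusted p = 0.954) and 1.06 after HSC + TBI (0.862 to 1.31, adjusted p = 0.774).
The second Dnajb9 probe ran from 8.93 to 9.62 in the TBI group and from 9.69 to 9.91 in the HSC + TBI group. These 2 ranges did not overlap, and the log2 difference of 0.47 had an unadjusted p of 0.0298 and an adjusted p of 0.251 by limma. The brighter probe gave 0.10 for the same comparison (adjusted p = 0.743).

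The disulfide isomerases form and reshuffle the disulfide bonds of secreted proteins. Pdia4 read 10.79, 10.68 and 10.49 in the controls, 11.14, 10.95 and 10.09 after TBI and 10.66, 11.01 and 10.90 after HSC + TBI. It had the widest scatter of the 9 genes, with both the highest and the lowest rat in the TBI group (SD 0.557, n = 3). Its fold change after TBI was 1.05 (0.701 to 1.57, adjusted p = 0.888), an interval that reaches past 1.5-fold. After HSC + TBI it was 1.15 (0.768 to 1.72, adjusted p = 0.718).
Pdia6 read 13.82, 13.89 and 14.13 in the controls, 14.16, 14.10 and 14.18 after TBI and 13.96, 14.02 and 13.82 after HSC + TBI. The TBI rats lay above all HSC + TBI rats and overlapped the controls. The log2 difference between the irradiated groups was -0.22 (adjusted p = 0.419), and that of TBI from the controls was 0.20 (1.15-fold, 0.951 to 1.39, adjusted p = 0.331).

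Of the ER-associated degradation genes, Herpud1 differed most between the groups. Herpud1 encodes HERP, a membrane protein that gathers the ubiquitin ligase complex for misfolded proteins, and its promoter holds the ERSE-II match shown above. Its brighter probe read 14.20, 14.11 and 14.06 in the controls, 13.58, 13.62 and 13.56 after TBI, and 14.13, 14.10 and 14.01 after HSC + TBI. The 3 TBI rats lay close together and below all 6 other rats, and the HSC + TBI rats overlapped the controls, HSC + TBI 3 lying just below them.
The log2 fold change after TBI was -0.534 with SE 0.099 (0.690-fold, 0.590 to 0.808, limma adjusted p = 0.0163). It passed the adjusted p and stopped short of the 1.5-fold minimum. After HSC + TBI the change from the controls was -0.04 (0.972-fold, 0.831 to 1.14, adjusted p = 0.861). The direct comparison of the irradiated groups gave 0.493 with SE 0.099, 1.41-fold higher after HSC + TBI, with an unadjusted p of 0.000903 and an adjusted p of 0.0718.
The second Herpud1 probe gave nearly the same values. It read 11.71, 11.60 and 11.74 in the controls, 11.12, 11.33 and 11.01 after TBI and 11.81, 11.62 and 11.57 after HSC + TBI, again with every TBI rat below the other 6. Its log2 fold changes were -0.53 after TBI (adjusted p = 0.0386), -0.02 after HSC + TBI (adjusted p = 0.959) and 0.51 between the irradiated groups (adjusted p = 0.111). Over the alternatives, the adjusted p of the TBI change at the brighter probe ran from 0.000132 to 0.0568. The low end came from the slide as a random block, a fit that cannot part slide from group. The adjusted p was 0.0534 without control 1 and 0.0568 with the 2 compared groups alone in the fit. Scaling by the 75th percentile in place of quantiles gave a called difference between the irradiated groups (0.607, adjusted p = 0.0479, range over the alternatives 0.00394 to 0.229). The comparisons of both irradiated groups with the controls share the control rats, and the TBI rats are shared by 2 of the 3 comparisons.

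**Figure D3:**
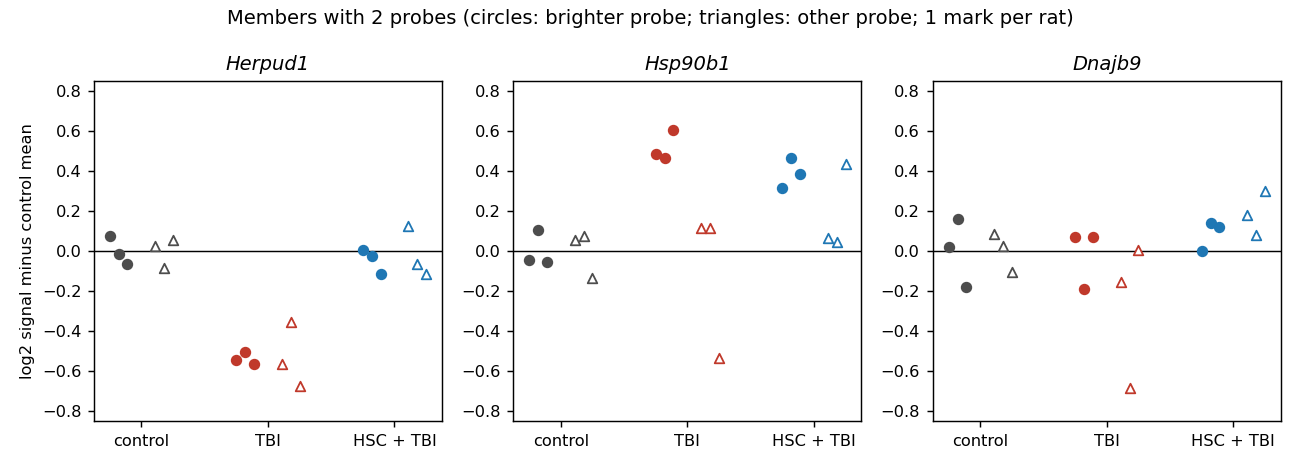
Log2 signal minus the control mean of the same probe, for the 3 genes with 2 probes; circles are the brighter probe, open triangles the other probe, 1 mark per rat. Both Herpud1 probes put all TBI rats below 0 and the HSC + TBI rats around 0, whereas the Hsp90b1 probes part in the TBI group, where the second probe of TBI 3 is lowest, and the second Dnajb9 probe is lowest in TBI 2.

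Sel1l encodes the adaptor of the ligase HRD1 in the same degradation route. It read 9.58, 9.56 and 9.59 in the controls, 9.82, 9.53 and 9.43 after TBI, and 9.67, 9.88 and 9.82 after HSC + TBI. The HSC + TBI rats lay above all controls, which were the tightest group of the 9 genes (SD 0.014, n = 3), and overlapped the TBI rats. The fold change was 1.16 after HSC + TBI (0.945 to 1.42, adjusted p = 0.409) and 1.01 after TBI (0.825 to 1.24, adjusted p = 0.953).

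Atf6, which encodes the membrane-bound sensor whose cleaved part acts at ERSE, read 10.86, 10.88 and 10.31 in the controls, 10.75, 10.60 and 10.12 after TBI, and 10.67, 10.55 and 10.81 after HSC + TBI. Within both the control and the TBI group 1 rat lay well below the other 2, and all groups overlapped. The fold change was 0.876 after TBI (0.629 to 1.22, adjusted p = 0.606) and 0.996 after HSC + TBI (0.716 to 1.39, adjusted p = 0.993).

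**Figure D4:**
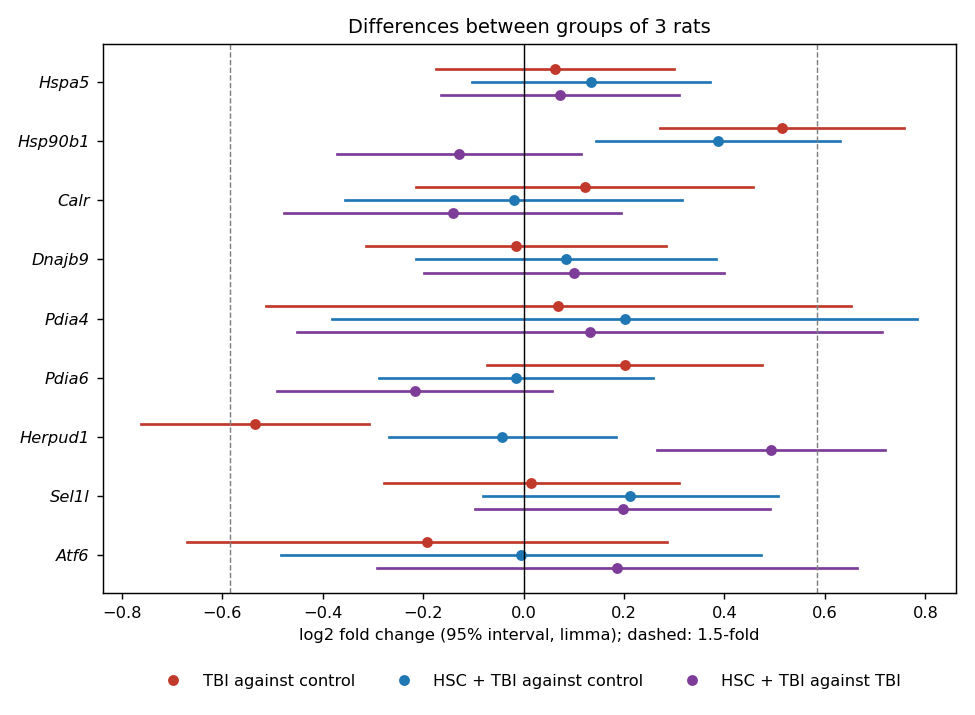
Log2 fold change of each gene with its 95% interval from limma, for TBI against control (red), HSC + TBI against control (blue) and HSC + TBI against TBI (purple), 3 rats per group; dashed lines mark 1.5-fold. Each gene is shown by its brightest probe. Among these probes, only the intervals of Hsp90b1 (against control) and Herpud1 (TBI against control, and between the irradiated groups) leave out 0. Those of Pdia4 are the widest.

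Across the 9 genes, the intervals describe the spread between rats, and a shift between the slides is not covered by them. After TBI 5 of the 9 intervals lay wholly within 1.5-fold in both directions, the others being those of Hsp90b1, Pdia4, Herpud1 and Atf6. After HSC + TBI 7 of the 9 did, all but Hsp90b1 and Pdia4. Between the irradiated groups 6 of 9 did, all but Pdia4, Herpud1 and Atf6. These counts rest on the brightest probe of each gene. The second Dnajb9 probe reached past 1.5-fold in every comparison (log2 -0.686 to 0.13, -0.22 to 0.595 and 0.058 to 0.873). The second Hsp90b1 probe did so after HSC + TBI (-0.273 to 0.641) and between the irradiated groups (-0.175 to 0.738). The genes did not move as a block: the group means ran control, TBI, HSC + TBI from low to high for 3 genes (Hspa5, Pdia4 and Sel1l), and took 4 other orders in the other 6. TBI 3 was the lowest of the 9 rats in 4 of the 9 genes and the highest in 2, and control 2 was the highest in 3.

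Likeness to Hspa5 over the 9 rats was measured by Pearson's r of the log2 values, as a description with no test, since all genes of an array share its labelling and normalization. Of 8531 named genes above background on all arrays, the closest were Atpsckmt (r = 0.949), Cabp7 (0.946), Dynll1 (0.912), Cd300lg (0.891) and Hecw1 (0.862), and none of these 5 was called in any comparison. Hsp90b1 had an r of 0.577 with Hspa5, Sel1l 0.409 and Dnajb9 0.367. Calr and Pdia6 lay near 0 (0.077 and 0.028), as did Pdia4 (-0.058), and Herpud1 (-0.118) and Atf6 (-0.339) ran below 0. The whole range of Hspa5 was 0.25 on the log2 scale, so these coefficients rest on small differences.

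The rest of the ER quality control machinery was read from lists of 56 genes, of which 44 had a probe and 43 were tested. After TBI 3 of the 43 (6.98%) were called, all higher, where 7.25% of all probes were called in either direction and 3.54% higher. After HSC + TBI 1 (2.33%) was called, also higher, beside 3.23% of all probes in either direction and 1.19% higher. These shares are near the background in either direction, and no result about the lists as a whole is read from them. Between the irradiated groups 0 of 43 were called by limma, with 3 at an unadjusted p under 0.05. All called genes belonged to the list of PERK branch targets, and 0 of the other 37 genes was called by limma in any comparison, with 3 at an unadjusted p under 0.05 in each. Of all probes 25.5%, 19.6% and 16.3% stood at that level in the 3 comparisons. The median log2 fold changes of the 43 genes were 0.00, 0.10 and 0.05 in the 3 comparisons, close to those of all probes given above.
The other sensors and factors had 5 tested genes, with changes from -0.17 to 0.15 after TBI and from -0.15 to 0.21 after HSC + TBI. Creb3l3, a liver ER-membrane factor that regulates lipid genes, had -0.16 (adjusted p = 0.42) after TBI, and Mbtps1, the first protease that cleaves ATF6, had -0.08 (adjusted p = 0.68). None of the 5 was called.
Of 8 other chaperones and cochaperones, 2 had values below 0 after TBI and 0 after HSC + TBI, where 50.7% and 43.5% of all probes lay below 0, and the medians of the list were 0.15 and 0.21. The brightest were Dnajc3, a cochaperone of BiP, at 0.27 (adjusted p = 0.144) and 0.26 (adjusted p = 0.206), and Sdf2l1 at 0.30 (adjusted p = 0.265) and 0.20 (adjusted p = 0.524). Dnajb11, another cochaperone of BiP, was singled out after its values were seen: it read 7.55 to 7.88 in the controls, 8.07 to 8.09 after TBI and 8.27 to 8.35 after HSC + TBI, 3 ranges without overlap. Its change after HSC + TBI was 0.576 (1.49-fold, limma adjusted p = 0.0343), just short of the fold minimum, and after TBI it was 0.36 (adjusted p = 0.0921).
In the 5 other disulfide isomerases and oxidases the changes ran from -0.57 to 0.12 after TBI and from -0.14 to 0.06 after HSC + TBI. The lowest after TBI was the peroxiredoxin Prdx4, singled out after its values were seen, at -0.57 (unadjusted p = 0.0175 and adjusted p = 0.111 by limma). It read 12.41 to 12.63 in the controls, 11.52 to 12.31 after TBI and 12.32 to 12.54 after HSC + TBI, so that the TBI rats lay below all others, and the irradiated groups differed by 0.47 (adjusted p = 0.28). The brightest were P4hb at 0.04 after TBI and 0.04 after HSC + TBI, and Pdia3 at 0.12 and 0.06. These are the prolyl hydroxylase subunit PDI and the glycoprotein isomerase that works with calreticulin, and neither was called. In the 10 other degradation genes the changes ran from -0.19 to 0.17 after TBI, with the ATPase Vcp at -0.17 (adjusted p = 0.468) and the ligase Syvn1 at -0.09 (adjusted p = 0.682). They ran from -0.12 to 0.41 after HSC + TBI and from -0.03 to 0.42 between the irradiated groups. After HSC + TBI the brighter Syvn1 probe gave 0.05 (limma adjusted p = 0.873) and the second 0.54 (limma adjusted p = 0.0564). In the 9 genes of protein entry into the ER the changes after TBI ran from -0.25 to 0.22, with the translocon-associated Ssr4 at -0.03 (adjusted p = 0.874) and the channel subunit Sec61b at -0.12 (adjusted p = 0.625). They ran from -0.05 to 0.22 after HSC + TBI and from -0.06 to 0.48 between the irradiated groups.

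**Figure D5:**
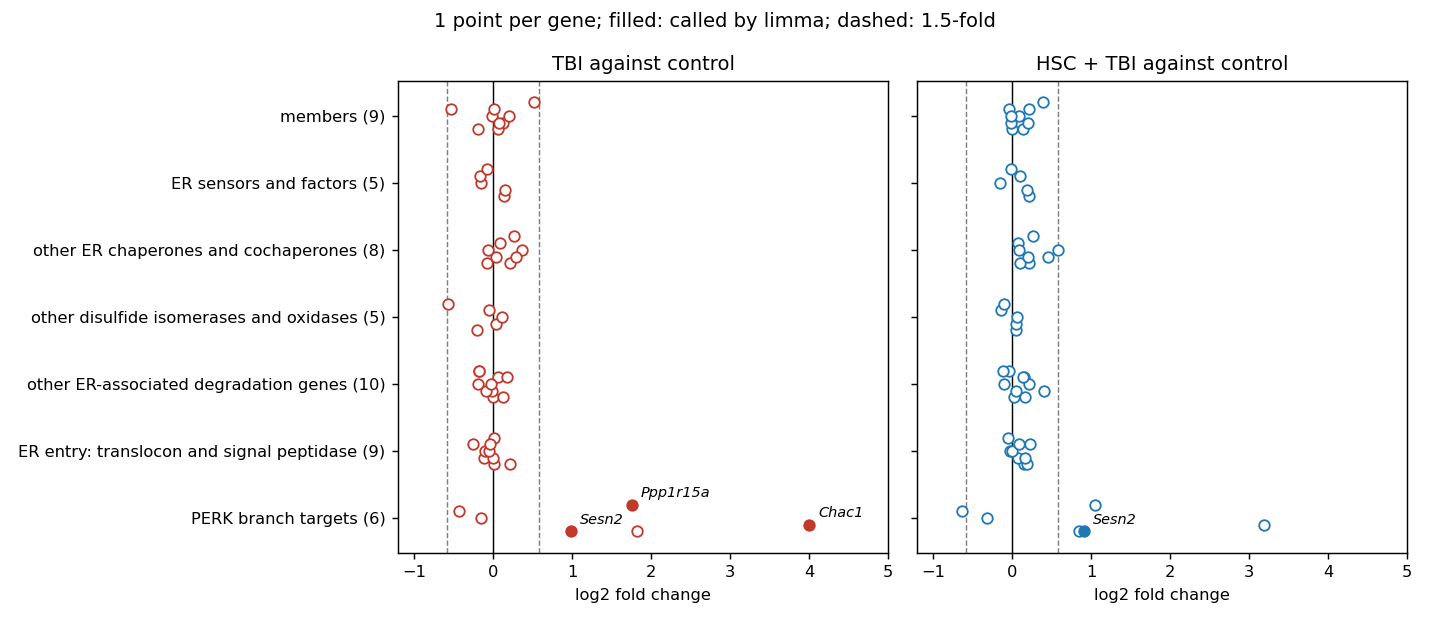
Log2 fold change of every tested gene by list, after TBI (left) and after HSC + TBI (right), each against the controls; 1 point per gene, filled where limma called it, with the number of genes in parentheses and dashed lines at 1.5-fold. The 9 genes described above and 5 of the lists stay within the dashed lines with no filled point, Herpud1, Hsp90b1 and Prdx4 coming near them after TBI and Dnajb11 after HSC + TBI, and the called genes Ppp1r15a, Chac1 and Sesn2 are in the list of PERK branch targets.

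The PERK branch targets were the list with called genes: 3 of 6 were called higher after TBI and 1 of 6 after HSC + TBI. Of all probes 7.25% and 3.23% were called in either direction, and 3.54% and 1.19% higher. The list is named for known targets, and the activity of PERK was not measured. Chac1, a glutathione-degrading enzyme, read 5.996, 8.655 and 6.785 in the controls, 10.48, 11.10 and 11.87 after TBI and 11.48, 9.01 and 10.52 after HSC + TBI. All irradiated rats lay above all controls, with control 2 and HSC + TBI 2 the nearest to each other. Chac1 rose by 4.003 on the log2 scale after TBI (16.04-fold, limma adjusted p = 0.0194), and the value after HSC + TBI was 3.19 (adjusted p = 0.068).
Ppp1r15a encodes the phosphatase subunit that releases the translation block set by PERK. It read 6.65, 7.92 and 7.38 in the controls, 8.71, 9.27 and 9.23 after TBI, and 8.71, 8.09 and 8.31 after HSC + TBI. It rose by 1.75 after TBI (3.37-fold, adjusted p = 0.015), and the value after HSC + TBI was 1.05 (adjusted p = 0.117). The log2 difference between the irradiated groups was -0.70 (adjusted p = 0.327).
Sesn2, sestrin 2, is known as a target of p53 as well as of ATF4. It read 6.55, 6.51 and 6.71 in the controls, 7.35, 7.88 and 7.49 after TBI, and 7.79, 7.48 and 7.23 after HSC + TBI, without overlap between irradiated and control rats. It rose by 0.98 after TBI (1.98-fold, adjusted p = 0.0168) and by 0.91 after HSC + TBI (1.88-fold, adjusted p = 0.0367).
The other 3 genes of the list were not called. Ddit3, which encodes the death-promoting factor CHOP, had log2 differences of -0.16 (adjusted p = 0.655) and -0.31 (adjusted p = 0.419). Atf3, a general stress factor, had 1.82 (adjusted p = 0.205) and 0.85 (adjusted p = 0.618) with control rats from 7.90 to 10.67, and Nupr1 had -0.43 (adjusted p = 0.225) and -0.63 (adjusted p = 0.133). Among all 43 tested pathway genes, the count of 3 after TBI fell to 1 without control 1 (Ppp1r15a left) and without control 3 (Sesn2 left). It was 2 without control 2 or TBI 2, and 4 without TBI 3, where Prdx4, from the disulfide isomerases and oxidases, was added. Among the same genes, the count of 1 after HSC + TBI was 0 without control 1, control 3, HSC + TBI 1 or HSC + TBI 2. Without control 2 the called gene was Chac1.

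Cells other than hepatocytes also make ER chaperones, plasma cells above all, so markers of such cells are described here. In whole liver, fewer cells of a type and less RNA per cell cannot be told apart. Of 5 tested plasma cell markers, 1 was called after TBI and 2 after HSC + TBI, all lower, beside 7.25% and 3.23% of all probes. Values below 0 were held by 3 and 4 of the 5. The brighter probe of Pou2af1, a coactivator of B lineage cells, fell, with log2 fold changes of -1.82 after TBI (adjusted p = 0.00434) and -2.29 after HSC + TBI (adjusted p = 0.00214). Its second probe, well above background on 5 of 9 arrays, had values of opposite sign, 1.10 (adjusted p = 0.306) and 0.93 (adjusted p = 0.458). The controls of this probe read 3.388, 3.871 and 1.204, which are low signals, and no direction is read from it. Tnfrsf17, the plasma cell receptor BCMA, was not well above background after HSC + TBI and was at least 3.07-fold lower than in the controls (adjusted p = 0.02). It passed the background filter only through the controls, so the direction of this call was set by the filter. Irf4 was not above background on all arrays of any group, and the brighter of 2 Prdm1 probes, above it on all 9 arrays, had values of 0.08 (adjusted p = 0.911) and -0.43 (adjusted p = 0.571). The summed signal of the list, most of it from Sdc1, which hepatocytes also express, was 8948 to 12340 in the controls, 8511 to 11630 after TBI and 11610 to 13810 after HSC + TBI.
Of the 2 tested B cell markers 1 was called after TBI and 1 after HSC + TBI. Of the 4 tested T cell markers 2 and 1 were called, beside 7.25% and 3.23% of all probes. All these calls were lower. Cd79b, Cd3g and Cd2 passed the background filter only through the controls, so that direction was set by the filter. Cd79b was at least 4.97-fold lower after TBI (adjusted p = 0.00317) and at least 2.9-fold lower after HSC + TBI (adjusted p = 0.0026). Cd22, the other tested B cell marker, had log2 differences of 0.55 after TBI (unadjusted p = 0.0118 and adjusted p = 0.089 by limma, no overlap with the controls) and -0.14 after HSC + TBI (adjusted p = 0.702). Cd3g fell by 3.603 on the log2 scale after TBI (adjusted p = 0.000685), where 2 of the 3 TBI arrays had it well above background, and was at least 11.4-fold lower after HSC + TBI (adjusted p = 0.000297). Cd2 was at least 5.13-fold lower after TBI (adjusted p = 0.00123). It was called higher after HSC + TBI than after TBI (limma adjusted p = 0.0306). As 1 of the 3 HSC + TBI arrays and no TBI array had it well above background, no fold is given for that comparison. Lck had differences above 0, 0.55 (adjusted p = 0.24) and 0.41 (adjusted p = 0.442), and Cd3d below 0, -0.79 (adjusted p = 0.148) and -0.76 (adjusted p = 0.213). The summed signal of the 6 T cell markers was 531 to 716 in the controls, 211.4 to 409.9 after TBI and 267.4 to 381 after HSC + TBI, and that of the 4 B cell markers with a probe was 197.6 to 213.7, 167.4 to 289.2 and 126.1 to 139.
Of 6 Kupffer cell markers, 0 were called by limma in any comparison. At an unadjusted limma p under 0.05 there was 1 after TBI, 2 after HSC + TBI, and 5 of the 6, all lower, between HSC + TBI and TBI. Of all probes 25.5%, 19.6% and 16.3% stood at that level in these comparisons. Their summed signal was 46620 to 67000 in the controls, 46210 to 86860 after TBI and 32440 to 35400 after HSC + TBI. The summed signal of the 5 neutrophil markers with a probe was 274.1 to 832.4, 406.4 to 1471 and 300.7 to 439.5. Of the 3 tested, 0 were called by limma, with 0, 1 and 2 at an unadjusted p under 0.05, beside the same shares of all probes. A bound on a fold compares the bright group with the lowest signal that counted as well above background on each array. The part of these cells in the values of the ER genes was not tested.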

How the data were processed

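The 10 genes and all gene lists were chosen with earlier results of these data known. Per the file headers, the authors read the spot intensities of 1 array per rat with Agilent Feature Extraction 10.7.3.1, which subtracted background and gave a processed signal and quality flags per spot. The authors also deposited log2 values that they had normalized by quantiles, used here as an alternative.

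The log2 of the processed signal, with signals under 1 raised to 1, was normalized by quantiles over 9 arrays with limma 3.58.1 in R 4.3.3, after control spots and outlier spots (84 to 115 of 43379 per array) were left out. Spots of each of 41012 probes were averaged. The 25369 probes flagged well above background, in more than 0.5 of their spots, on every array of some group of 3 entered a joint fit of all groups (lmFit and eBayes), with Benjamini-Hochberg adjustment over all of them. The labels number the livers within each group. The p-values set differences of group means against the spread between livers, pooled over the groups, and cannot part slide from group. RefSeq accessions (GRCr8) named 16968 probes, and the brightest tested probe stood for a gene. Named were the 10 genes, every list gene called, the 2 brightest of a list, the 5 genes most like Hspa5, and Cdkn1a. Dnajb11, Prdx4, Ddit3, Prdm1 and Irf4, outside this rule, were named after their values were seen. The fit was tested on simulated data. Alternatives covered normalization, background, filters, outlier spots, the samples fitted, the test, the fold minimum, the replicate block, slide, probe choice and each rat left out.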

Additional observations from a re-analysis of the deposited data

How the results depend on the processing

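Of the 9 genes, 0 were called in each comparison with any rat left out, and the alternatives changed this count at 2 places: 2 (Hsp90b1 and Herpud1) after TBI with no minimum fold change, and 1 (Herpud1) between the irradiated groups with the 75th percentile shift. Small log2 differences that were not called changed sign. With the 75th percentile shift Dnajb9 after TBI was 0.028, and after HSC + TBI Calr was 0.17, Pdia6 0.16, Herpud1 0.14 and Atf6 0.10. For HSC + TBI against control, normexp gave Dnajb9 -0.028 and Atf6 0.031, the authors' values gave Atf6 0.004, and the slide as a random block gave Atf6 0.011. The authors' values gave Dnajb9 0.003 after TBI, and the mean of both probes gave Hsp90b1 0.076 between the irradiated groups.

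With each rat left out in turn, the values after TBI ran from -0.105 to 0.071 for Dnajb9, from -0.136 to 0.386 for Pdia4 and from -0.097 to 0.097 for Sel1l. After HSC + TBI they ran from -0.191 to 0.092 for Atf6, from -0.128 to 0.092 for Calr, from -0.005 to 0.163 for Dnajb9 and from -0.075 to 0.075 for Pdia6, and between the irradiated groups from -0.185 to 0.337 for Pdia4. The cause of these sign changes was not tested.

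The other pathway genes called after TBI numbered 3, from 1 to 4 with a rat left out, and 0 by the methods' t-test with adjusted p. After HSC + TBI the count was 1, from 0 to 1 with a rat left out. It was 0 with normexp, with no filter on dim probes, and by the methods' t-test with adjusted p, and 2 by the methods' t-test with unadjusted p (Chac1 and Sesn2) and with no minimum fold change (Dnajb11 and Sesn2). With the slide as a random block it was 4 (Ppp1r15a, Nupr1, Chac1 and Sesn2).

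The replicate numbers were not taken to pair the rats: deviations of same-numbered TBI and control rats correlated at 0.191, 0.117 and 0.097, and 5 of 9 rats correlated best with their own number. With the replicate block the pathway count after HSC + TBI was 0 and that of all probes called between the irradiated groups was 97.

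The counts over all probes (1839 after TBI, 820 after HSC + TBI and 202 between the irradiated groups) moved by over 1.5 times with normexp (665, 490 and 6), with the slide as a random block (4529, 2576 and 2257; consensus correlation -0.328) and by the methods' t-test with adjusted p (145, 100 and 2). With unadjusted p that test gave 2061 after HSC + TBI and 1367 between the irradiated groups, and with 2 groups in the fit 1174 after TBI and 49 between the irradiated groups. Between the irradiated groups the count was 109 with no filter and 40 with probes above background on all 9 arrays. With a rat left out the counts ran from 888 to 2392, 317 to 1028 and 28 to 948. The share of higher calls between the irradiated groups was 29.2%, 13.7% with the 75th percentile shift and 66.7% with normexp. Signal over background did not limit the 9 genes, which were above it on all 9 arrays.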
